A study of Mus musculus with 10 samples.

Results

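The samples examined were the 6 RNA-seq libraries of ZBTB38 KO germinal center B cells, out of 10 libraries in the series, and the question asked of them was which genes differed most, and which least, between mice that carry the same genotype. ZBTB38 KO mice were Zbtb38fl/fl x Vav-Cre, in which exon 3 of Zbtb38 is flanked by loxP sites and Cre is driven mainly in hematopoietic cells. The comparison samples were 2 ZBTB38 WT (floxed alleles, no Cre) and 2 ZBTB38 HET (Zbtb38 fl/+ with Vav-Cre) libraries. The floxed line was maintained by backcrossing to C57Bl6/N mice. All mice were immunized with 100 μg of the hapten-protein conjugate NP-OVA in alum, and antigen-binding germinal center B cells (GL7+IgD-) were sorted 2 weeks later. The floxed Zbtb38 allele traces back to 1 founder made in C57Bl6/J zygotes, and Vav-Cre came from a separate mouse line. The age and sex of the mice are not given in the labels, and no batch is given.

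Germinal centers are transient structures of B cell follicles in which activated B cells divide, mutate their antibody genes and compete for T cell help. Cells cycle between a dark zone of division and mutation and a light zone of antigen-driven selection, and leave as memory B cells or plasma cells. Each clone carries its own pair of rearranged heavy and light chain genes, and many clones switch from IgM to another isotype. A sample of such cells therefore reports a population average over many clones and stages.

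The KO libraries held between 26612431 and 33894832 estimated counts each. Counts per gene symbol were scaled to a common library size with TMM factors and written as CPM, and 8597 of 22366 symbols had a mean of 10 or more CPM over the 6 KO samples, which is 38.4% of symbols and 98.7% of the CPM. Lgals3, with a mean of 10.01 CPM and an SD of 0.74, was the gene just inside this limit, and the joining segment Ighj4, with 9.99 CPM and an SD of 0.21, was just outside it. Spread is given as the standard deviation of log2(CPM + 1) over the 6 samples, given as SD from here on. No 2 KO libraries were alike within sampling noise, since the chi-square statistic per gene was 36.8 or more for every pair.

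Zbtb38 itself (ENSMUSG00000040433.16, chr9:96682770-96752831) checks the labels. Its level was 25.6, 50.02, 34.8, 32.8, 27.7 and 18.5 CPM in KO 1 to KO 6, against 163.6 and 152.1 CPM in the WT samples and 117.3 and 105.5 CPM in the HET samples. All 6 KO samples were below all 4 control samples, and the KO values spanned 2.70-fold, with an SD of 0.46. These levels are sums over all transcripts of the gene, so they do not separate the floxed exon from the rest. The paper reports complete loss of transcripts within the floxed exon in KO mice. The KO levels given here therefore do not measure how complete deletion was, and whether deletion differed between KO samples was not tested.

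The median gene had an SD of 0.276, which is a 1.21-fold step, and the middle 50% of genes lay between 0.197 and 0.388. An SD of 1 or more, meaning 2-fold or larger typical departures, was found for 111 genes (1.29%), and an SD under 0.1 for 240 genes (2.79%). Counting error alone would give a median SD of 0.0361, and the median share of a gene's variance that counting error made up was 1.63%. Spread was smaller at higher levels across genes (Spearman rho of -0.40 between SD and mean CPM, over 8597 genes that are not independent). The median SD was 0.388 in the quintile of genes with the lowest levels (median 15.4 CPM) and 0.219 in the highest quintile (median 225.3 CPM). The 100 most variable genes had a median level of 15.5 CPM and the 100 least variable a median level of 122.7 CPM.

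**Figure D1:**
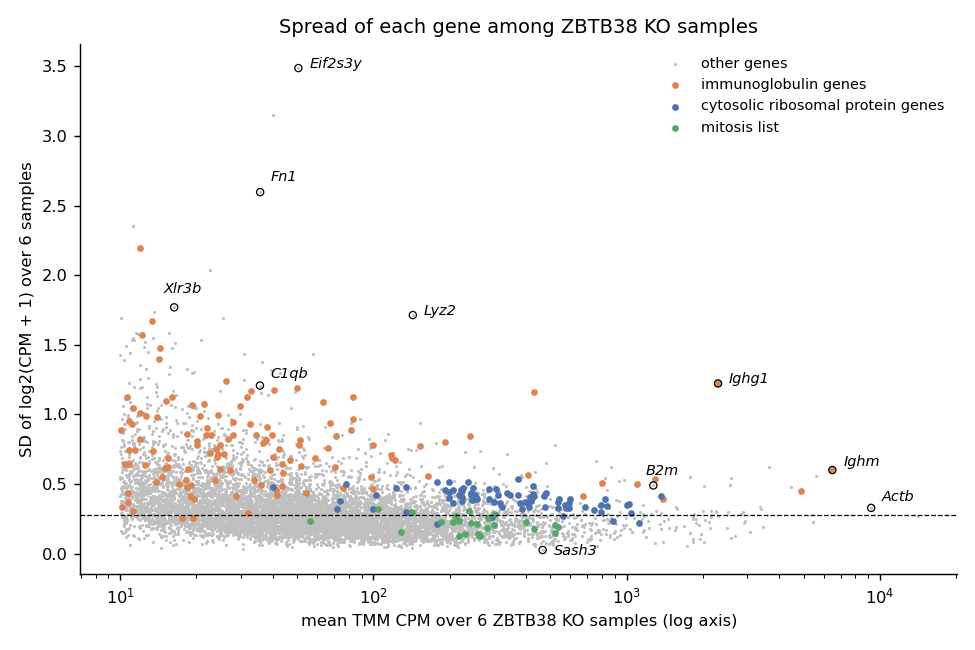
Mean TMM CPM (log axis) against the SD of log2(CPM + 1) over the 6 ZBTB38 KO samples, 1 point per gene for 8597 genes, with immunoglobulin, cytosolic ribosomal protein and mitosis genes coloured and 10 genes circled and named. The dashed line is the median SD of 0.276, and the named genes run from Sash3 at 0.03 to Eif2s3y at 3.49.

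KO 6 stood apart from the other 5 samples, and a number of results below are also given without it. The first principal component of the 8597 genes held 43.6% of the variance and placed KO 6 at 46.6 and the others between -17.9 and -4.57. Among the 500 most variable genes, KO 6 was the sample farthest from the median for 316 (135 above, 181 below), followed by KO 1 with 84 and KO 2 with 47. Counts of list members highest or lowest in a sample are given below without the share over all genes, which was not computed. Such counts therefore do not set a list apart from other genes. The number of genes under 1 CPM was 24 in KO 6 and 1 to 4 in each of the others. Over the same genes, the median SD without KO 6 was 0.242, and 38 of the 111 genes kept an SD of 1 or more. Of the 100 most variable genes 46 stayed in the top 100, and of the 100 least variable 43 stayed in the bottom 100. The RNA-level measures that moved with KO 6 were a smaller fragment length implied by the effective transcript lengths (212.5 bases, against 228.7 to 242.1 in the other KO samples), the fewest genes with a count (13883, against 14548 to 15551) and the largest share of mitochondrially encoded counts (3.73%, against 1.53% to 2.82%). Their part in the results was not tested.

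The genes with the largest SD among those that are not immunoglobulin genes were mostly of 2 kinds, Y-linked genes and genes nearly missing from KO 6. The 20 most variable held 3 Y-linked genes, 14 genes lowest in KO 6 (Fn1 among them), and Sdc3, Lyz2 and Gbp7. Eif2s3y (chrY:1010543-1028847), a Y-linked translation initiation factor subunit, had the largest SD of any gene, 3.49. Its levels were 93.9, 96.5, 0.0652, 0.0311, 112.2 and 0.778 CPM in KO 1 to KO 6. Ddx3y, the Y-linked RNA helicase, had 71.7, 97.0, 0.261, 0.187, 70.8 and 1.41 CPM. KO 1, KO 2 and KO 5 were high and KO 3, KO 4 and KO 6 near 0 for both, and Uty (SD 2.35) and the histone demethylase Kdm5d (SD 1.51) had the same high and low samples. Of 7 listed Y-linked genes 4 reached 10 CPM, and all 4 had an SD of 1 or more, against 1.29% of all genes, and their median SD was 2.75 (2.86 without KO 6). Kdm5d was less close to 0 in the low samples, at 3.81, 6.51 and 1.97 CPM. Among the X-linked counterparts, which were added to the named genes after their values were seen, Eif2s3x was 91.1, 67.3, 135.5, 138.5, 114.7 and 178.8 CPM, so that KO 1, KO 2 and KO 5 were the 3 lowest samples. Ddx3x (119.8, 199.2, 187.6, 203.3, 206.8 and 237.0 CPM) and Kdm5c (28.4 to 96.9 CPM) did not follow that order. Reads of near-identical copies can be divided between such pairs. In the controls, Eif2s3y was 66.5 and 104.0 CPM in the WT samples and 0.0637 and 0 in the HET samples.

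Markers of macrophages and other myeloid cells were the most variable list after the Y-linked genes. These cells are outside a sort gate for B cells, and tingible body macrophages, which clear dying B cells, live within germinal centers. Of the 22 listed markers, 15 reached 10 CPM, all 15 had an SD above the median of all genes (50% of genes do), 7 had an SD of 1 or more (1.29% of genes do) and 6 were among the 100 most variable (1.16% of genes are). Their median SD was 0.97 with and without KO 6. The summed level of the whole list was 957.5, 605.0, 1162.7, 1582.0, 1007.5 and 1137.7 CPM in KO 1 to KO 6, and 681.1 to 1489.8 CPM in the 4 controls. In bulk samples, fewer cells of a type and less RNA per cell cannot be told apart.

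The myeloid genes followed 2 different patterns. Lyz2 (lysozyme, chr10:117277331-117282321) was 20.9, 32.3, 113.2, 520.3, 138.3 and 34.3 CPM, a 24.9-fold range with KO 4 highest and KO 1 lowest. Fn1 (fibronectin, chr1:71585520-71653200) was 0.875, 4.02, 14.985, 160.3, 33.7 and 0.568 CPM, with the third largest SD of all genes, 2.60. It is made by macrophages and stromal cells alike and is not on the marker list. For both, KO 4 was the highest sample and KO 6 was among the 3 lowest. Itgam (the integrin CD11b), added after its values were seen, was 5.94, 4.59, 9.54, 42.9, 15.6 and 5.15 CPM, again with KO 4 far above the rest and KO 6 among the lowest.

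The complement genes C1qa, C1qb and C1qc, which encode the 3 chains of C1q and are made by tissue macrophages, had a second pattern with KO 2 lowest. C1qb was 27.1, 5.13, 43.0, 62.8, 27.1 and 48.9 CPM, with an SD of 1.21 (1.29 without KO 6). C1qa was 13.4, 3.33, 15.8, 24.2, 12.7 and 18.3 CPM. C1qc was 17.3, 6.42, 31.4, 41.3, 23.6 and 43.8 CPM. KO 6 was among the higher samples for all 3, in contrast to Lyz2 and Fn1. Apoe, the most abundant gene of the list, varied least of it, with 664.3 CPM in KO 1, 351.8 CPM in KO 6 and an SD of 0.32.

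The C1q genes are neighbours and moved together, and Sash3 and Ercc1 were the least variable genes, so their start regions are printed to show how these genes differ in CpG content. Each sequence runs from 250 bases before to 50 bases after the start of the gene in RefSeq (GRCm38.p6), 5′ to 3′ on the gene's strand, with CpG dinucleotides in capitals. C1qb holds 6 CpG and C1qc 3, Sash3 holds 3 and Ercc1 13.
C1qb, chr4:136886151-136886450 (minus strand): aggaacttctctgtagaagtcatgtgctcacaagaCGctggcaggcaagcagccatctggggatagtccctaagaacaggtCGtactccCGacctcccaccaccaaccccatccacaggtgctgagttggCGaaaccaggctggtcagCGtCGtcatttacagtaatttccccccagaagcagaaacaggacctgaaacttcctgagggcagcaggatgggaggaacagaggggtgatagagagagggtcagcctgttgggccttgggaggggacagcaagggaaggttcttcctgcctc
C1qc, chr4:136892865-136893164 (minus strand): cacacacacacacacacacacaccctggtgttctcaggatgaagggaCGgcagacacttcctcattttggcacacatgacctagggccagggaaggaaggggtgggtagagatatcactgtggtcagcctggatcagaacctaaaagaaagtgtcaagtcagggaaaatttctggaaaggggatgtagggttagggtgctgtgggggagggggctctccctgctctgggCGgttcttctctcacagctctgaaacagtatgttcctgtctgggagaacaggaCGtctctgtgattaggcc
Sash3, chrX:48146186-48146485 (plus strand): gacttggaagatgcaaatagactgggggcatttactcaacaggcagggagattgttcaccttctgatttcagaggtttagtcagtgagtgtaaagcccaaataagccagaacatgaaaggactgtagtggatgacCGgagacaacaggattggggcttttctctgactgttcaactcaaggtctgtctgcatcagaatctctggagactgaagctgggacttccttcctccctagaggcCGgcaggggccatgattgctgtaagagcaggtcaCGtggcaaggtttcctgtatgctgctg
Ercc1, chr7:19344821-19345120 (plus strand): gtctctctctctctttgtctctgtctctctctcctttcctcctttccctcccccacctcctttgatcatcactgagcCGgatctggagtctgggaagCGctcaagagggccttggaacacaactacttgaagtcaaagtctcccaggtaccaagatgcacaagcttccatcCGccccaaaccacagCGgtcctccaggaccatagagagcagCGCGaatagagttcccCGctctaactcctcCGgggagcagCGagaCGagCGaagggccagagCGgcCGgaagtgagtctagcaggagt
Over all genes of 10 or more CPM with such a sequence (6562), the median was 22 CpG. It was 16 over the 56 of the 100 most variable genes that matched, 22 over the 84 of the 100 least variable that matched and 6 over the 9 matched genes of the myeloid list. The letters TATAAA, searched on both strands, were in 10.7% of the most variable, 4.76% of the least variable, 5.96% of all genes at this level and 14.2% of all RefSeq promoters. None of the 21 immunoglobulin genes among the most variable had a sequence in the table.

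The 14 genes lowest in KO 6 among the 20 most variable outside the immunoglobulin loci differed in how the other samples varied, and Fn1, described above, was nearly as low in KO 1. Xlr3b (chrX:73192207-73202930), an X-linked lymphocyte-regulated gene, was 9.70, 43.4, 7.88, 30.9, 5.90 and 0.419 CPM. Rap1gap2, a GTPase-activating protein for Rap1, was 3.43, 25.5, 15.9, 14.9, 22.1 and 0.209 CPM. Osbpl3, an oxysterol-binding protein, was between 21.2 and 30.3 CPM in KO 1 to KO 5 and 0.927 CPM in KO 6. Its SD was 1.54 with KO 6 and 0.20 without it. Atp11a, Tnfrsf21, Unkl, arsb (spelled as in the files), Kcns1, Jrk, Zfat and Mettl13 showed the same kind of gap, with SDs of 1.52 to 1.69 that became 0.34 to 0.60 without KO 6. Evc and Ndrg1 were likewise lowest in KO 6 (0.269 and 0.179 CPM). Gbp7, an interferon-inducible GTPase, was instead highest in KO 6 at 27.4 CPM and lowest in KO 1 at 0.109 CPM. Sdc3, a heparan sulfate proteoglycan of the cell surface, was 0.146, 5.38, 26.0, 53.6, 23.9 and 26.8 CPM, lowest in KO 1 and highest in KO 4, and KO 6 lay among the other samples.

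Genes that varied together were grouped by average linkage among the 100 most variable genes at a Pearson r of 0.7, and 5 groups had at least 5 genes. These groups describe the same values that chose the genes and carry no test. The first group had 39 genes, all lowest in KO 6, led by Xlr3b, Rap1gap2 and Atp11a and including Ighg1. Their median pairwise r was 0.94, and 0.25 over the other 5 samples. The second had 21 genes, all highest in KO 6 and 16 of them lowest in KO 1, led by Gbp7, Ighv1-58 and Gpr34, with a median r of 0.87 (0.66 without KO 6). The third had 8 genes, all lowest in KO 2, led by Tyrobp, Trf and Ifitm3 and including C1qb, Slc40a1 and Axl, with a median r of 0.93 that was 0.94 without KO 6. Tyrobp, an adaptor of activating receptors on myeloid cells, was 7.18, 2.29, 17.2, 29.1, 13.5 and 41.2 CPM. Trf, transferrin, was 8.57, 6.17, 47.6, 46.9, 35.0 and 40.2 CPM. The fourth held the 4 Y-linked genes and Igkv12-98, a kappa variable gene that was 99.9 CPM in KO 5 and 7.84 CPM in KO 6. The fifth held 5 genes highest in KO 6 and lowest in KO 2, namely Ighv1-15, Hpgd, Igkv3-7, Ighv1-59 and Ighv5-4. Across all pairs of the 8597 genes the median r was 0.005.

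**Figure D2:**
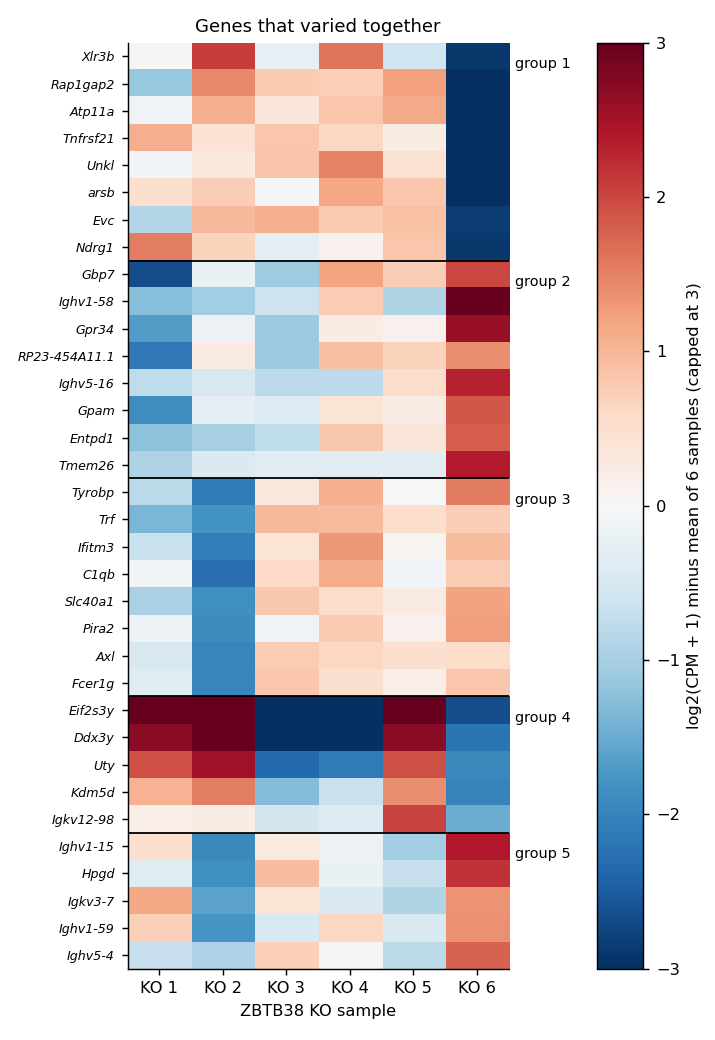
Up to 8 genes with the largest SD in each of the 5 co-variation groups, coloured by log2(CPM + 1) minus the mean of the 6 ZBTB38 KO samples (colour capped at 3 in either direction). Columns are the 6 samples, and the blue column of KO 6 in group 1, the red column of KO 6 in group 2 and the blue column of KO 2 in group 3 set the groups apart.

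Immunoglobulin genes made up 1.42% of the genes and 21 of the 100 most variable. Variable genes are short and include near-identical copies that can share reads, so values of single members are uncertain. All 46 heavy chain variable genes at 10 CPM and 56 of 58 kappa variable genes had an SD above the median of all genes. Their median SDs were 0.80 and 0.77, or 0.56 and 0.66 without KO 6. Igkv7-33 (chr6:70058632-70059199) was 65.7 CPM in KO 1 and between 0 and 2.99 CPM in the other 5, with an SD of 2.19. Ighv1-58 was 58.3 CPM in KO 6 and between 1.93 and 11.1 CPM in the others. Ighv5-9 was highest in KO 5 at 38.9 CPM and lowest in KO 1 at 0.948 CPM, and Ighv1-82 was highest in KO 4 at 152.8 CPM and between 14.3 and 48.0 CPM elsewhere. Different samples thus held the peak for different variable genes, although KO 6 was highest for 30 of the 46 heavy chain and 32 of the 58 kappa variable genes. Ighv1-72, the V186.2 segment used by many NP-specific antibodies and the most abundant heavy chain variable gene here, was 164.5, 237.4, 383.1, 352.9, 230.1 and 76.0 CPM, lowest in KO 6. The smallest SDs were 0.37 for Ighv1-78 and 0.25 for Igkv3-5.

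The heavy chain constant genes, which define the antibody isotype, differed between KO samples by up to 11.0-fold. Ighg1 (IgG1, chr12:113325240-113330523) was 2180, 2797, 3542, 2974, 1932 and 352 CPM. The first 5 values lay within the spread of each other (SD 0.35 over those 5) and KO 6 was far below them. Ighm (IgM) was 4721, 3828, 4578, 8053, 6059 and 11724 CPM, highest in KO 6. Ighg2c was 298.5, 343.4, 356.8, 82.9, 912.2 and 589.3 CPM, with KO 4 lowest and KO 5 highest. Ighd (IgD, a marker of cells that have not switched, and excluded by the sort) was 87.0, 69.7, 92.7, 159.8, 66.5 and 230.1 CPM, highest in KO 6 and KO 4. All 8 constant genes had an SD above the median of all genes, and the smallest was 0.54 for Ighg2b. Their median SD was 0.70, or 0.46 without KO 6. Controls had 2846 to 3275 CPM of Ighg1 and 2765 to 7865 CPM of Ighm.

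Genes of naive and memory B cells, which recirculate rather than divide in the follicle, had a median SD of 0.59 over 15 of 17 genes (0.40 without KO 6), and 11 of the 15 were highest in KO 6. Klf2, a quiescence factor of lymphocytes, was 86.4, 89.5, 84.1, 132.9, 60.4 and 224.5 CPM. Zbtb32, a BTB zinc finger factor of memory B cells, had the largest SD of the list, 0.89, with 74.7 CPM in KO 6 and 11.5 to 31.3 CPM in the others. Cd38, an ectoenzyme that mouse germinal center B cells carry at low levels, was 229.0 CPM in KO 6 and 52.9 to 105.0 CPM in the others, and was the most variable gene of the germinal center list. Foxo1 was nearly constant, at 269.1 to 315.9 CPM (SD 0.08).

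Genes that define germinal center B cells had smaller SDs than the naive and memory list, though 14 of 20 exceeded the median of all genes. All 20 reached 10 CPM, with a median SD of 0.34 (0.27 without KO 6), and 14 were highest in KO 1. Bach2, a repressor of plasma cell fate, varied least of them (303.1 to 388.8 CPM, SD 0.14). Dark zone genes had a median SD of 0.21, mitosis genes 0.21 and DNA replication genes 0.21, all below the 0.276 of all genes. That median was exceeded by 5 of 12 dark zone, 4 of 25 mitosis and 4 of 30 replication genes, against 50% of genes. The lists were not matched for level, and the quintile of genes with the highest levels had a median SD of 0.219. They also overlap, as the dark zone list shares Mki67, Ccnb1, Ccnb2, Aurka, Aurkb, Plk1, Cdc20 and Bub1 with the mitosis list. The dark zone list shares Pola1 with the replication list, so only its members Cxcr4, Foxp1 and Gcsam are on neither. The medians of these lists are therefore not separate observations. Mki67, a marker of cycling cells, was between 461.8 and 612.0 CPM. Light zone genes had a median SD of 0.30, or 0.23 without KO 6, where the median of all genes was 0.242. Their extremes were Egr2 (3.11 CPM in KO 6 and 7.30 to 18.5 CPM in the others, SD 0.90) and the costimulatory Cd86 (151.4 to 183.6 CPM, SD 0.10). Dusp1, a phosphatase of the immediate early response, was 24.8 to 34.4 CPM in KO 1 to KO 5 and 5.59 CPM in KO 6. The immediate early list as a whole had a median SD of 0.23, and heat shock genes 0.22.

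Plasma cell genes had a median SD of 0.32, with Ly6c2 the extreme (7.40, 7.31, 14.5, 35.9, 23.2 and 60.9 CPM, SD 1.17) and Txndc5 the steadiest (599.5 to 861.9 CPM, SD 0.18). Among genes of the unfolded protein response, Hsp90b1, an endoplasmic reticulum chaperone, was 371.2, 477.7, 587.6, 951.0, 995.1 and 1171 CPM, a spread (SD 0.66) larger than that of Hspa5 (608.5 to 913.5 CPM, SD 0.26). Interferon-stimulated genes had a median SD of 0.44, and all 11 of 26 that reached 10 CPM exceeded the median of all genes. Ifi203 was 21.6 to 28.4 CPM in KO 1, KO 2, KO 3 and KO 5, 59.5 CPM in KO 4 and 92.1 CPM in KO 6. Cholesterol biosynthesis genes had a median SD of 0.34, led by Mvk (3.20 CPM in KO 6 and 9.91 to 18.8 CPM in the others). Among BTB zinc finger genes the median SD was 0.32, or 0.21 without KO 6, where the median of all genes was 0.242. Zbtb18 was the extreme (41.3 CPM in KO 6 and 4.86 to 13.02 CPM in the others). Zbtb20 was highest in KO 2 at 512.9 CPM and lowest in KO 6 at 106.8 CPM. Bcl6, the master factor of germinal centers, was 168.1 to 278.9 CPM.

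T cell markers were mostly scarce, and 5 of 22 reached 10 CPM. Lck, which B cells can also express, was 125.8 to 220.0 CPM, while Tcf7 was 4.72 to 32.9 CPM, highest in KO 6 (SD 0.91). Of the 10 T follicular helper genes, Tox2 (24.6 to 98.3 CPM, SD 0.83) and Cxcr5 (SD 0.15) passed, and B cells express Cxcr5. No member of the neutrophil, platelet or NK cell lists reached 10 CPM, and their summed levels in KO samples were at most 5.89, 3.15 and 26.4 CPM. The hemoglobin genes Hbb-bt (31.7 to 80.3 CPM) and Hbb-bs (5.47 to 15.8 CPM) are near-identical copies that can share reads, and the lowest sample for Hbb-bs, KO 1, was the highest for Hbb-bt. Of 1150 olfactory receptor symbols, 10 reached 10 CPM, with a median SD of 0.46, and 7 of the 10 were highest in KO 2. Their median transcript length was 5953.5 bases, and the quintile of all genes with the longest transcripts had a median deviation of 0.18 in KO 2.

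**Figure D3:**
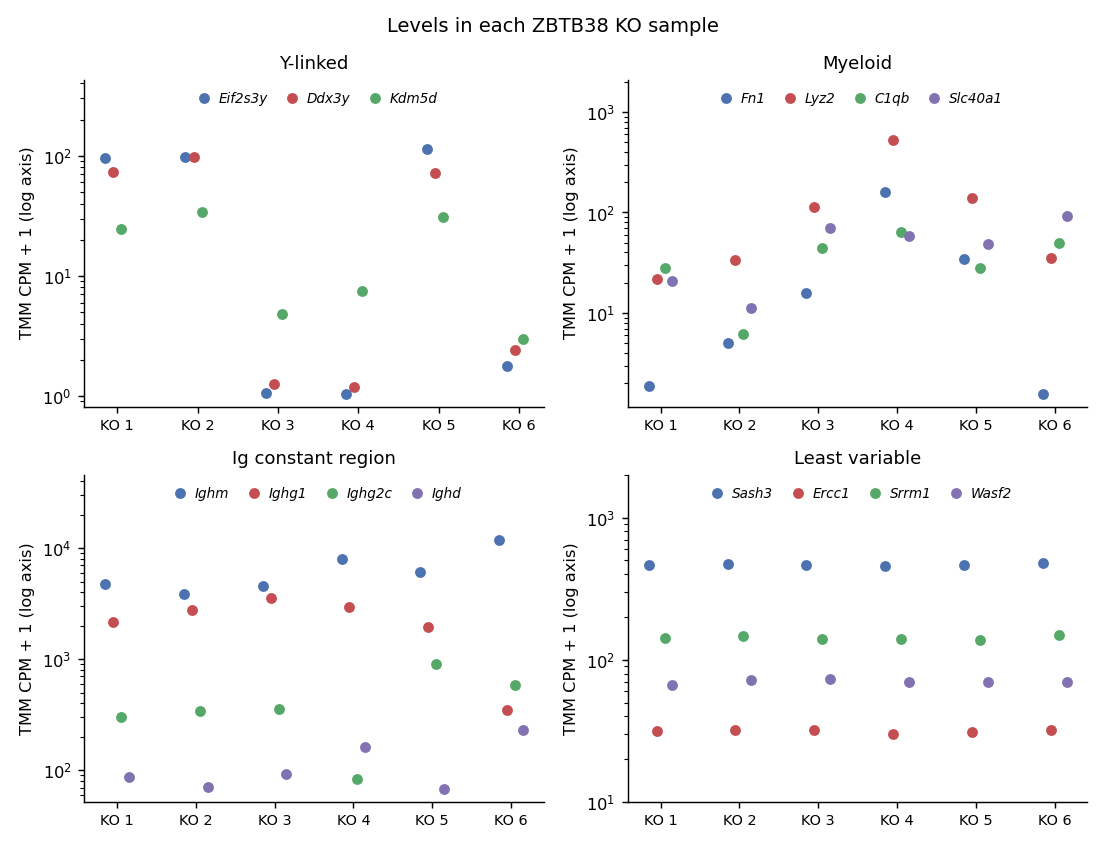
TMM CPM plus 1 (log axis) of Y-linked, myeloid, immunoglobulin constant region and least variable genes in each of the 6 ZBTB38 KO samples, 1 point per gene and sample. The Y-linked genes split the samples into 3 high and 3 low, KO 4 is highest for Lyz2 and Fn1, KO 6 is lowest for Ighg1 and highest for Ighm, and the 4 least variable genes lie level.

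**Figure D4:**
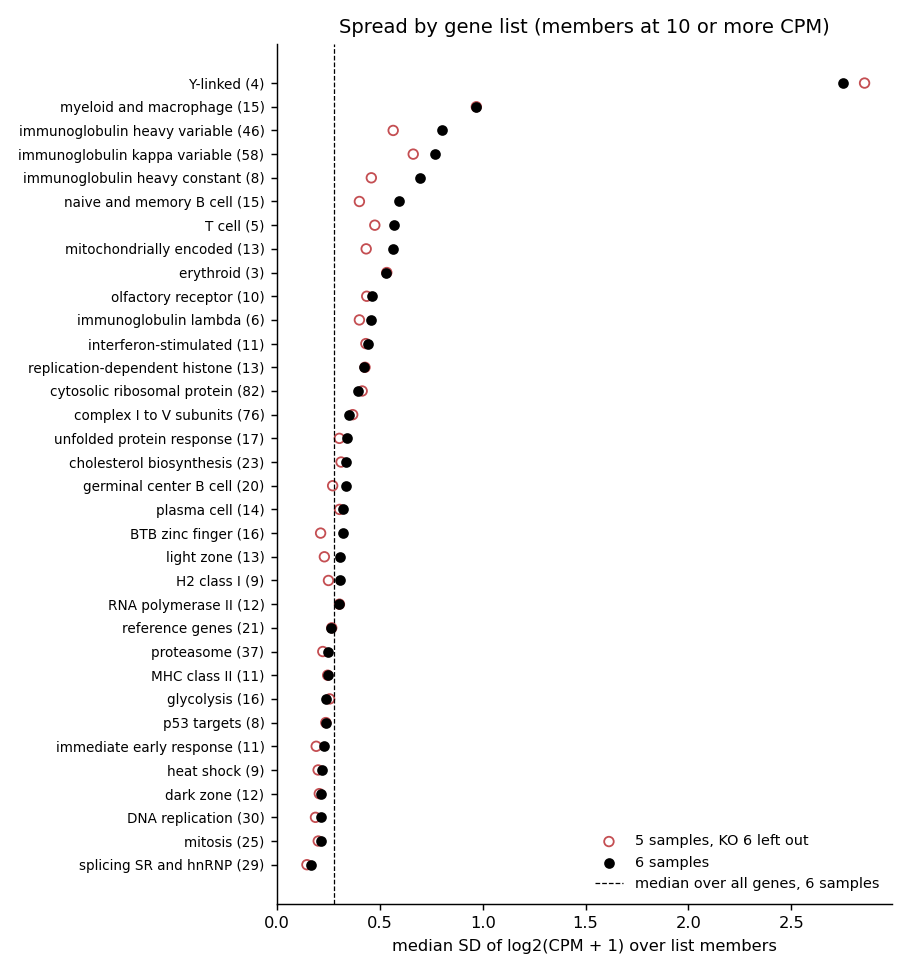
Median SD of log2(CPM + 1) over the members of each gene list at 10 or more CPM (number of members in brackets), over 6 ZBTB38 KO samples (filled) and over 5 samples without KO 6 (open). Lists run from splicing factors at 0.17 to Y-linked genes at 2.75, and the dashed line marks the median of all genes, 0.276.

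Several housekeeping families moved as blocks, and in several of them the order of samples was that of short transcripts in general. Of 85 cytosolic ribosomal protein genes, 82 reached 10 CPM, with a median SD of 0.39 and a median pairwise r of 0.96. Their median deviation from the gene mean was 0.46 in KO 1, -0.44 in KO 2, 0.16 in KO 3, -0.49 in KO 4, 0.09 in KO 5 and 0.22 in KO 6, and 72 of the 82 were highest in KO 1. Rps29, the most variable of them, was 532.9, 235.2, 383.9, 229.8, 326.6 and 524.6 CPM. Subunits of respiratory complexes I to V (76 genes) had a median SD of 0.35, a median r of 0.91 and 70 members highest in KO 1. Proteasome subunits (37 genes) had a median SD of 0.25 and a median r of 0.76, and replication-dependent histones (13 of 67 genes) a median SD of 0.42, with Hist1h2ap between 566.9 and 1614 CPM. The 13 mitochondrially encoded genes had a median SD of 0.56 and a median r of 0.97, and 11 were highest in KO 6, where mt-Co1 was 7487 CPM against 2862 to 4932 CPM in the others.

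The quintile of genes with the shortest transcripts (median 1117 bases) had median deviations of 0.36 in KO 1, -0.22 in KO 2 and -0.25 in KO 4. In the longest quintile (median 5590 bases) these were -0.24, 0.18 and 0.15. KO 3, KO 5 and KO 6 lay between -0.0923 and 0.105 in all 5 quintiles. The second principal component, 29.1% of the variance, ran from KO 1 at -35.2 to KO 4 at 20.6. Ribosomal protein transcripts had a median length of 752 bases and respiratory chain subunits 812 bases. When each sample was centred within each quintile of transcript length, a calculation added after the data were seen, the median SD fell from 0.394 to 0.201 for ribosomal protein genes, from 0.347 to 0.155 for respiratory subunits, from 0.247 to 0.135 for proteasome subunits and from 0.276 to 0.239 for all genes. It stayed at 0.96 for myeloid and 0.79 for heavy chain variable genes. What sets the relation to length was not tested.

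**Figure D5:**
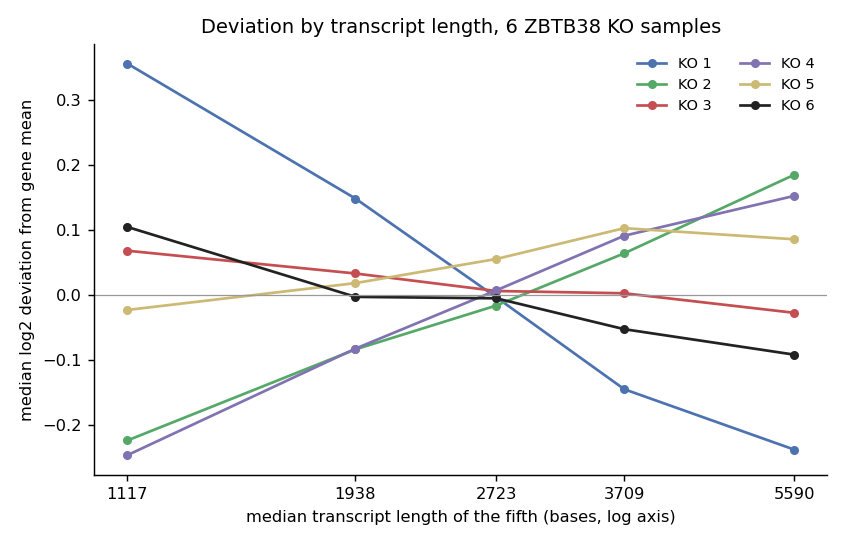
Median log2 deviation from the gene mean against the median transcript length (bases, log axis) of 5 equal groups of the 8597 genes, 1 line per ZBTB38 KO sample. KO 1 falls from 0.36 to -0.24 from the shortest to the longest group, while KO 2 and KO 4 climb.

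Genes often used as references had SDs much like those of genes in general. The 21 listed had a median SD of 0.26, close to the 0.276 of all genes, and 10 of 21 exceeded that median (50% of genes do). Actb (beta-actin) was 11648, 6914, 10456, 6715, 9776 and 9950 CPM, a 1.73-fold range. Gapdh spanned 1.75-fold, Ppia 1.92-fold and B2m, the light chain of MHC class I and the most variable of the list, 2.51-fold (791.2 to 1985 CPM). Sdha, a subunit of succinate dehydrogenase, was the steadiest, at 473.3 to 552.2 CPM (SD 0.08). Without KO 6 the median SD of the list was 0.27, where that of all genes was 0.242. Centring by transcript length took it to 0.17, where that of all genes was 0.239. The list was not matched for level, and the quintile of genes with the highest levels had a median SD of 0.219.

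The least variable gene was Sash3 (chrX:48146436-48161565), an adaptor of lymphocyte signalling, at 461.7, 472.9, 464.8, 455.2, 462.6 and 479.6 CPM, a 1.05-fold range and an SD of 0.027 against a counting SD of 0.012. Ercc1, a nuclease subunit of DNA repair, was 30.5, 31.0, 31.1, 29.1, 30.0 and 31.2 CPM, with an SD of 0.037 that was below its counting SD of 0.048. Srrm1, a splicing cofactor, was 140.3, 145.1, 139.7, 139.3, 137.8 and 148.6 CPM. The 15 smallest SDs, all between 0.027 and 0.054, also included Fam72a, Etfdh, the actin regulator Wasf2, Ergic2, the apoptotic caspase Casp8, Nap1l4, the autophagy protein Wipi2, Cnp, Elp2, Stxbp2, Rnf114 and Tssc4. Their ranking depended on the scaling. Of the 100 least variable genes, 90 were shared when DESeq2 size factors were used, 28 when only the total count was used, 21 after centring by transcript length and 1 when TPM was used, where the SD of Sash3 was 0.17. Splicing factors of the SR and hnRNP families had the smallest median SD of the lists, 0.167 (0.14 without KO 6, 0.13 after centring by length), and Hnrnpf was 1671 to 1834 CPM. With TPM this order changed, and the proteasome, MHC class II and heat shock lists had smaller medians than the splicing list.

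Of 20 gene pairs listed for correlation over the 6 KO samples, both genes reached 10 CPM in 13. In exact permutation tests (two-sided, all 720 pairings, smallest possible p of 0.00278), 7 of the 13 passed an adjusted p of 0.1 by Pearson r and 5 by Spearman rho. The share of all gene pairs that would pass was not computed, so this count does not set the listed pairs apart from other pairs. C1qa and C1qb had r = 0.99 (exact permutation p = 0.00278, adjusted 0.0181) and rho = 0.94 (exact p = 0.0167, adjusted 0.0722), and r = 0.97 without the 2 samples farthest from the median. The MHC class II chains H2-Aa and H2-Ab1 had r = 0.99 (exact permutation p = 0.00278, adjusted 0.0181) and rho = 0.94 (exact p = 0.0167, adjusted 0.0722), with r = 0.95 without the 2 farthest. Their transcripts are short (1131.7 and 1211 bases), and centring by transcript length took the median SD of the class II list from 0.25 to 0.15. Whether their correlation remains after such centring was not tested. Iglc1 and Iglv1, the lambda 1 constant and variable genes, had r = 0.97 (exact permutation p = 0.00694, adjusted 0.0301) and rho = 0.94 (exact p = 0.0167, adjusted 0.0722), with r = 0.92 without the 2 farthest.

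For the replication factors Mcm3 and Mcm5, r was 0.93 (exact permutation p = 0.0222, adjusted 0.0572) and rho 0.89 (exact p = 0.0333, adjusted 0.0867), and r was 0.37 without the 2 farthest samples. This relation rested on those samples. Mki67 and Top2a passed by rho (0.89, exact permutation p = 0.0333, adjusted 0.0867) and not by r (0.78, exact permutation p = 0.0653, adjusted 0.106). The pair Ddx3y and Eif2s3y also passed by r, but its samples fell into 2 clusters of 3, so no r is given and the relation within clusters could not be tested. Ighm and Ighg1 had r = -0.78 (exact permutation p = 0.0736, adjusted 0.106) with r = -0.65 without the 2 farthest and r = -0.11 without KO 6. The pairs Jchain and Xbp1, Sdc1 and Prdm1, and Cd83 and Cd86 did not pass by either measure, with exact permutation p of 0.0972 or more. Without KO 6, none of the 13 passed, although r was 0.9952 for C1qa and C1qb and 0.9976 for H2-Aa and H2-Ab1, and 5 samples allow fewer pairings. These p-values measure only the spread between these samples.

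Spread in the KO samples was last set beside that of the 4 controls. The median absolute log2 difference between 2 samples over the 8597 genes was 0.173 to 0.390 among the 15 KO pairs (0.310 to 0.373 for the 5 pairs with KO 6), 0.174 between the WT samples and 0.156 between the HET samples. A test of spread in limma (absolute deviations from the group mean, KO against WT and HET as 1 control group) called 0 of 8586 genes at an adjusted p of 0.1, which is 0%. At an unadjusted p under 0.05, 804 genes (9.36%) passed, of which 641 had the larger spread in KO. With the group median as centre, 398 passed unadjusted and 0 adjusted. A count of 0 from 6 against 4 samples does not show equal spread. Control deviations were taken from 1 mean over WT and HET, so differences between WT and HET samples counted as control spread. Tcf7, for example, was 34.3 and 47.6 CPM in WT and 4.55 and 3.29 CPM in HET. The Y-linked Eif2s3y was 66.5 and 104.0 CPM in WT and 0.0637 and 0 CPM in HET. Genotype and the split by Y-linked genes therefore cannot be told apart in the controls. With deviations from the mean of each genotype, 11 genes were called, 7 of them with the larger spread in KO. With WT and HET each centred on its own mean, which leaves 2 differences, the median control SD was 0.144. Across genes, KO and control SDs had a Spearman rho of 0.31. Of the 100 most variable genes in KO, 18 were also among the 100 most variable in controls (1.16% of all genes are). Of the 100 least variable genes in KO, 2 were among the 100 least variable in controls, which is near that share. A control SD above the control median was found for 91 of the 100 most variable genes in KO and 40 of the 100 least variable.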

How the data were processed

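RNA of sorted germinal center B cells was amplified with SMART-Seq v4 and sequenced in paired ends. Per the labels, the authors quantified transcripts with Salmon 0.9.1 against Gencode vM17 and ran DESeq2 2.11.40.6 (the submitters' processing notes). They deposited estimated counts per transcript, without scaling and often fractional, and TPM values for 64019 transcripts per sample. Groups were taken from the sample titles.

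Estimated counts were summed per gene symbol and rounded. TMM factors (edgeR 4.0.16, R 4.3.3) were computed on the 6 KO samples, or on all 10 for the controls. Genes with a mean of 10 or more CPM were kept, and log2(CPM + 1) was used. Spread was tested with limma 3.58.1 and Benjamini-Hochberg adjustment at 0.1. Correlations used exact permutation tests. The calculation of spread and its test were first tested on simulated data. Gene positions are from Gencode vM21 on GRCm38, which matched 8596 of 8597 genes, and promoters from RefSeq. Alternatives were DESeq2 1.42.0 size factors, total counts, TPM, other filters and pseudocounts, other measures of spread and each sample left out.

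Named genes were Zbtb38, the 20 non-immunoglobulin and 10 immunoglobulin genes with the largest SD, the 15 with the smallest, the genes of the pairs, the extremes and up to 2 most abundant genes of each list, and the genes next to the 10 CPM limit. Co-variation groups are named by their 3 genes of largest SD. C1qc, Ighg2c, Ighd, Itgam, Slc40a1, Axl, Ighv1-59, Ighv5-4, Nnt and the X-linked genes were added after their values were seen. A few genes and the 3 pairs that hold them are not reported here, though they stay in the counts. Members and lists were chosen with earlier results of these data known. The replicates are separate libraries, and nothing in the labels ties them to litters or days. The counting SD covers the sampling of reads and not amplification.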

Additional observations from a re-analysis of the deposited data

Results flagged for a closer look

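Among 222 values examined over the 6 KO samples (named genes, summed lists and library measures), 17 had 1 sample whose gap to its nearest neighbour was a larger part of the whole range than Dixon's 95% critical value. For genes and summed lists, the gap and the range were taken on log2(CPM + 1), although levels are given below in CPM. Library measures were not transformed. Chance alone would pick about 5% of values. Of the 17, 12 were a lowest value in KO 6.

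The genes lowest in KO 6 were Atp11a (0.897 CPM, others 16.6 to 40.9), Tnfrsf21 (0.359, others 13.3 to 25.4), Unkl (0.0897, others 7.47 to 24.5), arsb (0.120, others 8.47 to 21.0), Kcns1 (0.299, others 10.2 to 24.9), Jrk (0.0897, others 9.16 to 18.7), Zfat (0.179, others 6.95 to 21.0), Osbpl3 (0.927, others 21.2 to 30.3) and Mettl13 (0.299, others 7.98 to 19.4). All of these are among the 20 most variable genes outside the immunoglobulin loci, and that choice favours values that stand apart. Ighg1 was also lowest in KO 6 (352 CPM, others 1932 to 3542), as were the immediate early genes Egr1 (54.4 CPM, others 79.3 to 99.1) and Dusp1 (5.59 CPM, others 24.8 to 34.4).

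The remaining 5 concerned KO 1 and KO 2. KO 1 was high for Igkv7-33 (65.7 CPM, others 0 to 2.99), for Nfkbia, the inhibitor of NF-kB (311.3 CPM, others 182.5 to 217.6), and for the summed light zone list (1927 CPM, others 1566 to 1661), of which Nfkbia is a member. KO 2 was low for C1qa (3.33 CPM, others 12.7 to 24.2) and C1qb (5.13 CPM, others 27.1 to 62.8).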

How the results depend on the processing

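The median SD moved by less than the sampling error of a single SD over 6 samples under all 15 alternatives tried. This margin is not the error of a median over 8597 genes, which was not computed. The median SD was lowest, 0.24, with a mean of 50 or more CPM. The number of genes with an SD of 1 or more was 456 with a mean of 1 or more CPM, 8 with a mean of 50 or more CPM and 459 with no filter, and 43 to 154 with each KO sample left out, where 43 is without KO 6 with scaling and filter redone. The 100 most variable genes shared 79 to 99 members with those under other scalings and pseudocounts, 55 under the CV, 36 without KO 6, 44 with a mean of 1 or more CPM or no filter and 8 with a mean of 50 or more CPM. The 100 least variable shared 0 with no filter and 1 with TPM. The spread test called 11 genes (7 higher in KO) with WT and HET centred on their own means, 7 (0 higher in KO) with a mean of 1 or more CPM, and 0 to 8 with each sample left out, where 8 is without KO 6 and 1 without KO 5 (0 higher in KO in both). With replicate number as a block, the fit called 477 genes (454 higher in KO). Only numbers 1 and 2 are shared between groups, so this fit compares KO 1 and KO 2 with the controls on 3 residual degrees of freedom, and samples with equal numbers correlated at -0.01 to 0.10, so the numbers are not taken as pairs. Gene pairs passing numbered 0 (without KO 6) to 7 with each sample left out, and 7 to 9 under other scalings. Of 525 list medians recomputed, 24 moved by more than the error of an SD, and of 2620 SDs of named genes, 225 did. Depth was not the limit for the spread of most genes, since 58 of 8597 had an SD under 2 counting SDs.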

Other observations

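Genes of antigen presentation by MHC class II, which germinal center B cells use to obtain T cell help, had a median deviation from the gene mean of 0.40 in KO 1 and -0.24 in KO 4. Cd74, the invariant chain, was 19631, 12868, 14708, 11729, 12271 and 13347 CPM in KO 1 to KO 6, and 8 of the 11 class II genes were highest in KO 1 and 6 were lowest in KO 4. Their median SD was 0.25, and 0.15 after centring by transcript length. Ciita, the class II transactivator, had the largest SD of the list (0.31), with 274.3 CPM in KO 6 and 373.1 to 515.6 CPM in the others. MHC class I genes had a median SD of 0.30, and 6 of the 9 were highest in KO 6, where H2-Q7 was 252.3 CPM against 102.9 to 187.0 CPM in the others.

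Glycolysis genes had a median SD of 0.24 and p53 target genes 0.24. Of 16 glycolysis genes, 8 were highest in KO 5 and 6 in KO 1, and Ldha ran from 1009 CPM in KO 4 to 1519 CPM in KO 5. Pmaip1 was the most variable p53 target, at 7.40 to 19.97 CPM. The 12 subunits of RNA polymerase II had a median SD of 0.30 and a median pairwise r of 0.70. Polr2k was highest in KO 1 at 85.2 CPM, and Polr2b lowest there at 125.7 CPM.

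Nnt, a mitochondrial transhydrogenase known to carry a deletion in the C57BL/6J substrain, was 11.99, 12.6, 26.7, 28.1, 10.9 and 9.33 CPM in the KO samples. The WT samples had 16.2 and 32.7 CPM and the HET samples 16.2 and 18.4 CPM. KO 3 and KO 4 were above the range of the other 4 KO samples.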
